A study of Mus musculus with 4 samples.

Results

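The genes described here are 40 mouse genes of DNA replication and of the G1/S transition, the step at which a cell commits to copying its genome. They were chosen by gene symbol for their known role, and all 40 were present among the 24561 gene symbols on the array, where 53 probes read them. Each gene was represented by its probe with the highest mean signal. The genes were measured in L1210, a mouse lymphocytic leukemia cell line of DBA origin (subline 212), with 1 array for each of 4 lines. In the study, variants of Fbxw11 were expressed in L1210 to ask how this F-box protein, a part of an E3 ubiquitin ligase that marks other proteins for destruction, acts on proliferation. L1210-Fbxw11a received the full-length transcript, L1210-Fbxw11c a transcript without exon 2, L1210-Fbxw11d a transcript without exons 2 and 3, and L1210-control the control virus. All 4 lines, the control included, were infected with lentivirus, sorted by flow cytometry as GFP+ cells and kept in the same serum-containing growth medium. Each line is 1 sorted population, so the variant and any other property of that population cannot be told apart.

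In G1, the origin recognition complex, CDC6 and CDT1 load the ring-shaped MCM helicase onto DNA. Cyclin E with its kinase partner, and a second kinase, then drive the recruitment of CDC45, GINS and MCM10, and the helicase opens the double strand for primase and the replicative polymerases, which the sliding clamp PCNA holds on the template. E2F transcription factors switch on most of these genes as cells enter S phase, and lymphoid leukemia cells in growing culture express them at high levels.

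The promoters of 32 of the 40 genes were found in the RefSeq promoter table (GRCm38.p6, C57BL/6J sequence, whereas L1210 is of DBA origin). The 8 others, Mcm4, Ccne2, Gins1, Gins2, Gins4, Prim2, Pole and Rfc2, were not matched. Each window runs from 250 bases before to 50 bases after an annotated start. Because E2F factors bind many of these promoters, 4 forms of the E2F consensus were searched on both strands, TTTCCCGC, TTTCGCGC, TTTGCCGC and TTTGGCGC, and overlapping matches were counted. At least 1 form was present in 12 of the 37 promoter windows of the 32 genes (32.4%), each in a different gene, and in 744 of all 32851 windows (2.26%). The forms TTTCCCGC, TTTCGCGC and TTTGGCGC were in 6, 5 and 6 windows of these genes, against 1.07%, 0.323% and 0.514% of all windows, and TTTGCCGC was in 0 against 0.441%. The 10 windows below, 300 bases each and written 5′ to 3′ on the strand of the gene, are shown because the results turn on these genes: the 5 MCM subunits in the table, the members with low ratios in all 3 variant lines (Cdt1, Mcm10, Lig1) and members with high ratios there (Ccne1, Rrm2). Capitals mark a match to 1 of the 4 forms on either strand.
Mcm2 (chr6:88898731-88899030, minus strand): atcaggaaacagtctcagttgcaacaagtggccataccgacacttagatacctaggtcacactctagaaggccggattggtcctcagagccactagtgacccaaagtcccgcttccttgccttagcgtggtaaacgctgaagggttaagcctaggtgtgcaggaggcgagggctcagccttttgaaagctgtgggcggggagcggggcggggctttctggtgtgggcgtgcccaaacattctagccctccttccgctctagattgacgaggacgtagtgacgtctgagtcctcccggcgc
Mcm3 (chr1:20820263-20820562, minus strand): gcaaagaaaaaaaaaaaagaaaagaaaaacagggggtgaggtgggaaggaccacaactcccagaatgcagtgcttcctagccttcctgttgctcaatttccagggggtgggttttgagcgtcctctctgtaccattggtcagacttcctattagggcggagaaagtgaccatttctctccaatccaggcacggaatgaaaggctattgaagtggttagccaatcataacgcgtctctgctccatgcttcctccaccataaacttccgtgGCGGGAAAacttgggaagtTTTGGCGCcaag
Mcm5 (chr8:75109259-75109558, plus strand): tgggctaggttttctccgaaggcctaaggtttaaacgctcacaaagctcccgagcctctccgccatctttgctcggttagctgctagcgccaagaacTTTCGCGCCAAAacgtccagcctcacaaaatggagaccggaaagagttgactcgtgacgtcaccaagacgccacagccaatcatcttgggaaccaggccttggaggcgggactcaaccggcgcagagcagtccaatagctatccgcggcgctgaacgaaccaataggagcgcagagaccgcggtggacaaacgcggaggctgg
Mcm6 (chr1:128359656-128359955, minus strand): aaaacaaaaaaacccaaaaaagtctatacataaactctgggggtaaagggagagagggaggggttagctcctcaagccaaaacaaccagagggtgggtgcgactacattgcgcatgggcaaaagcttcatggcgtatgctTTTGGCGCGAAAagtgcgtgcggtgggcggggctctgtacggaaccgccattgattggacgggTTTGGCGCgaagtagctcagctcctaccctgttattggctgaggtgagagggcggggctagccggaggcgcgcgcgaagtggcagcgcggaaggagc
Mcm7 (chr5:138171834-138172133, minus strand): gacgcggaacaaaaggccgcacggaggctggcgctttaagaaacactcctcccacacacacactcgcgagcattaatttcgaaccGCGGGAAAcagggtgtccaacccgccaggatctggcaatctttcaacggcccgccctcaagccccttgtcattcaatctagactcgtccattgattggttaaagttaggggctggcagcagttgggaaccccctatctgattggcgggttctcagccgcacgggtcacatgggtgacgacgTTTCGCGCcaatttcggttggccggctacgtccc
Cdt1 (chr8:122567765-122568064, plus strand): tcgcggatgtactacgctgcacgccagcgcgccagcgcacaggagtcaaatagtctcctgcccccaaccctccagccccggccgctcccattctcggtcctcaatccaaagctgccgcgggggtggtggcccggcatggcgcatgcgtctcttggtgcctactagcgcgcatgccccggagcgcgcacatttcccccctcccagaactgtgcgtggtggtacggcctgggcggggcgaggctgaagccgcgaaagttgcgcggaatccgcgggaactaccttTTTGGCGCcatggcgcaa
Mcm10 (chr2:5012742-5013041, minus strand): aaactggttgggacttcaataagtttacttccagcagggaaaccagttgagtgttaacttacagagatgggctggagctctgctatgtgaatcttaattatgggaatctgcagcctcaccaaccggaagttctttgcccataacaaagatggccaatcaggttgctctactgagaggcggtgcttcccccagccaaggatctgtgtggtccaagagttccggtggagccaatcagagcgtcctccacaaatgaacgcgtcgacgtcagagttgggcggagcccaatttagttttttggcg
Lig1 (chr7:13278576-13278875, plus strand): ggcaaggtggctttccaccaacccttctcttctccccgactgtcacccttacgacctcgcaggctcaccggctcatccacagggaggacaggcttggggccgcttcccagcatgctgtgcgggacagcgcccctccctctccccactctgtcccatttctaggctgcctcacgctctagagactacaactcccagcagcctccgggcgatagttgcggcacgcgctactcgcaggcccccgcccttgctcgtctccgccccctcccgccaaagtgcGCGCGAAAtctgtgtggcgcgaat
Ccne1 (chr7:38107441-38107740, minus strand): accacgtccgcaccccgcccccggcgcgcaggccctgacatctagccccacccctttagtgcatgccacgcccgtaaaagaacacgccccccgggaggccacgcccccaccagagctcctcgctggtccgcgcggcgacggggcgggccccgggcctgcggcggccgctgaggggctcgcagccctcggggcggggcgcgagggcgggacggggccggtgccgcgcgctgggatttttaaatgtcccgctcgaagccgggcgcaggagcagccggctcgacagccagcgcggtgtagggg
Rrm2 (chr12:24708004-24708303, plus strand): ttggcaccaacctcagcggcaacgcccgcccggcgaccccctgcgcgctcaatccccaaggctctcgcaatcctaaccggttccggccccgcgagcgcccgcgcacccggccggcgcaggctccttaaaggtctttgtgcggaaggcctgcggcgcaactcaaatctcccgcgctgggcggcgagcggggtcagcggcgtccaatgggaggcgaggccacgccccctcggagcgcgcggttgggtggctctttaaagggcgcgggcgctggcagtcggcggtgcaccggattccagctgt
In Mcm5 the run TTTCGCGCCAAA holds overlapping matches of both strands, from base -153 relative to the start, and in Mcm6 the run TTTGGCGCGAAA does so from base -110, with a further TTTGGCGC at base -47. The match of Cdt1 starts at base 32 after the start, and that of Lig1 at base 26. The 8 letters of none of the 4 forms are in the windows of Mcm2, Mcm10, Ccne1 and Rrm2. Matches were in 7 of the 18 matched genes whose signal was highest in L1210-control, in 5 of the 11 with another order, and in 0 of the 3 whose signal was lowest there. A match is a stretch of letters and was not measured as a bound site.

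Signals are the background-corrected intensities of the scanner, brought to the scale of the L1210-control array by the 75th percentile of each array, and a log2 ratio is a difference of such values. Signals of a gene are given with L1210-control first, then L1210-Fbxw11a, then L1210-Fbxw11c, and last L1210-Fbxw11d. Ratios to the control follow the same order, without the control. The L1210-Fbxw11d array was alone on its slide, so for this line slide and variant cannot be told apart. Its 75th percentile was 954.2, against 620.2 to 672.5 on the others, and its spike-in RNA was -0.60 ± 0.11 (SD over 10 probes) from the control after scaling and 0.026 before it. Fbxw11 itself was read by 2 probes, with ratios of 0.21, 0.22 and 0.18, and of 0.31, 0.27 and 0.025; whether these probes read the introduced transcripts is not given in the sources used here. Of 8 B lineage markers 4 were detected on all arrays, and these summed to 155.7 to 203.4, while Cd79b, Ebf1, Rag1 and Igll1 were not detected. Of 5 T lineage markers all but Cd3g were detected, summing to 4374 to 4803. Of 6 macrophage or monocyte markers all but Lyz2 were detected, and these summed to 9482 in L1210-control and 6330 to 7663 in the variant lines. All 3 pan-leukocyte markers were detected (sums of 20993 to 27032), but Lcp1 made up most of each sum (19736 to 25843). Coro1a read 1061 to 1417 and Ptprc only 29.7 to 42.9. Of 5 fibroblast markers 2 were detected on every array (sums of 95.4 to 138.4).

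No replication gene differed 2-fold from L1210-control in any variant line. Most were slightly lower: in L1210-Fbxw11a 31 of the 40 genes had a log2 ratio below 0. So did 31 in the L1210-Fbxw11c line and 25 in L1210-Fbxw11d, and the medians were -0.12, -0.11 and -0.055 in turn. Under median centring the counts were 30, 22 and 5, against 46.3%, 33.7% and 22.3% of all genes. In L1210-Fbxw11d the replication genes were then below 0 less often than all genes. In RNA of whole populations, the share of cells in S phase and the amount of a transcript per cell cannot be told apart, and the study's cell cycle measurements were not used here. With the signals scaled as above, the widest difference below the control was that of Cdt1, which loads the helicase and was 1.43-fold lower in L1210-Fbxw11d. The widest above it was that of Ccne1, which encodes cyclin E1 and was 1.27-fold higher in L1210-Fbxw11c. The 120 ratios then lay between -0.51 and 0.35. Under median centring the largest ratio in size was that of Tk1 in L1210-Fbxw11d (0.51), and Cdt1 in that line came to -0.29. Over all genes compared, the share that differed 2-fold was 4.45% in L1210-Fbxw11a, 3.88% in the L1210-Fbxw11c line and 5.75% in L1210-Fbxw11d. Signal matters to that share, since 38 of the 40 genes, all but Ccne2 and Pola2, read 1000 or more on every array, and among the 7369 genes that did so the shares were 0.285%, 0.149% and 0.258%. A count of 0 in 40 therefore lies near the background for genes of this signal.

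With 1 array per line there is no replicate check and no p-value, and the 3 comparisons share the same control array. The error given by the scanner software for a ratio was 0.20 (log2) for nearly all of these genes. For probes printed 10 times that read 1000 or more (144 to 151 of 399 per array), the median SD between spots was taken. Combining the 2 arrays of a comparison gave an SD of a ratio of 0.088, 0.085 and 0.11 for the 3 variant lines in turn. Beyond 2 of these SDs lay 15, 14 and 9 of the 40 genes, against 27.5%, 30.9% and 32.0% of genes at 1000 or more. Beyond 1 scanner error lay 10 of the 40 genes in each comparison, against 21.6%, 23.1% and 35.7% of the genes that read 1000 or more on every array. By the brightest probes, with the signals scaled as above, only Cdt1 lay beyond 2 scanner errors, in L1210-Fbxw11c and L1210-Fbxw11d. The second probe of Ccne1 (0.42, 0.70 and 0.46) lay beyond 2 errors in all 3 lines. That of Prim2 did so in L1210-Fbxw11c and L1210-Fbxw11d (0.58 and -0.69). Under median centring the ratios of Cdt1 in these 2 lines were -0.35 and -0.29, within 2 errors. Ccne1, Tk1, Rrm1 and Rrm2 then lay beyond 2 errors in L1210-Fbxw11d (0.51, 0.51, 0.48 and 0.48), and Ccne1 in L1210-Fbxw11c (0.42). Neither error covers culture, sorting or RNA extraction.

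The ratios of all genes were centred near 0, with medians of 0.0061, 0.017 and 0.023, and 47.1%, 45.6% and 42% of genes were below 0. Among genes that read 1000 or more on every array, 46.3%, 39.4% and 36.8% were. The median of the replication genes minus that of all genes was thus -0.13, -0.13 and -0.078. In L1210-Fbxw11d this distance was -0.046 under normexp and -0.14 under quantile normalization. With dim probes kept it was -0.022, and -0.078 in L1210-Fbxw11c, and 53.1% of all genes were then below 0 in L1210-Fbxw11d. Genes of 1000 or more had a median of 0.069 in that line. Where arrays were centred on their median signal, the median of all genes moved to 0.010, 0.089 and 0.24, and the replication genes moved with it to -0.12, -0.040 and 0.16, so the direction against L1210-control turned in L1210-Fbxw11d. This centring shifts every gene of an array by 1 constant and cannot change the distance to all genes. Counted from each line's own median over the 16249 genes that were well above background on every array, 31, 32 and 26 of the 40 genes were below it.

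**Figure D1:**
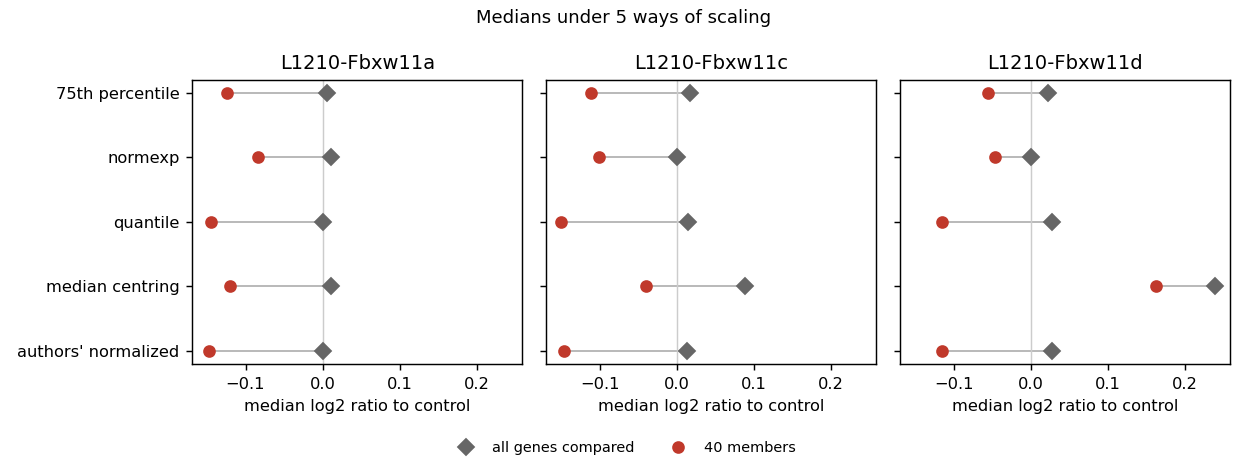
Median log2 ratio to L1210-control of the 40 replication genes (circles) and of all genes compared (diamonds) in each variant line, under 5 ways of background correction and scaling. The circles lie left of the diamonds in every row, and in L1210-Fbxw11d both lie above 0 under median centring, at 0.16 and 0.24.

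Ordered over the 4 arrays, the L1210-control signal was the highest for 21 of the 40 genes, against 20.9% of the 16249 genes well above background on every array and 16.3% of the 7369 genes of high signal. The summed macrophage or monocyte markers were also highest in the control. Cd68 (7276, 5632, 4565 and 5341), Cd14 (986.8, 790.3, 649.0 and 751.4) and Csf1r (1104, 1097, 1030 and 507.5) were highest there, whereas Emr1 (48.3, 90.9, 35.6 and 90.9) and Mpeg1 (67.9, 52.3, 50.8 and 73.6) were not, and their part in these ratios was not tested. It was the lowest for 4 genes, Ccne1, Ccne2, Rrm2 and Tk1, against 27.4% and 32.5%. L1210-Fbxw11d was the highest for 12 genes, against 35.1% of all genes, and L1210-Fbxw11a the lowest for 16, against 24.9%. On the 3 arrays that shared a slide, L1210-control was the highest for 28 of the 40 genes, against 31.9% of all genes. These orders depend on the scaling: under median centring L1210-control was the highest for 4 of the 40 genes, against 10.71% of all genes, and the lowest for 8, against 38.6%, so the count with the control highest then lay at the background. For E2f1, Cdt1, Mcm10 and Lig1 the control was the highest, and for Ccne1 and Rrm2 the lowest, under all 6 settings of background, scaling and flagged spots. These are not 6 separate checks. Keeping flagged spots changed the sign of 0 of the 120 ratios and left the largest in size at 0.51. The largest under quantile normalization and with the authors' values were 0.5605 and 0.5606.

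**Figure D2:**
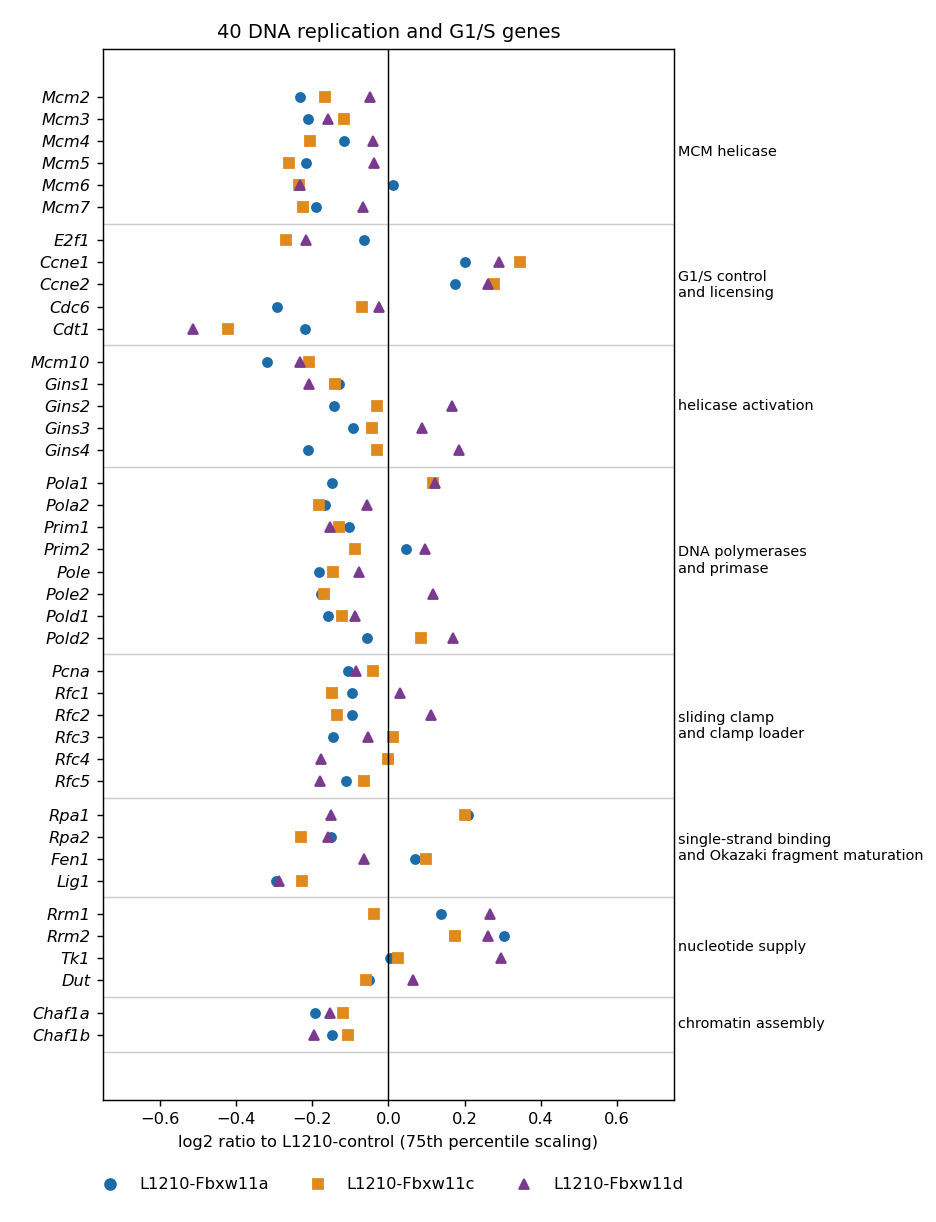
Log2 ratio to L1210-control of each of the 40 genes, grouped by role, in L1210-Fbxw11a (circles), L1210-Fbxw11c (squares) and L1210-Fbxw11d (triangles), 1 array each. Most points lie left of 0, and Ccne1, Ccne2, Rrm2 and Tk1 lie right of it in all 3 lines. Ccne2 in L1210-Fbxw11d turned to -0.25 under normexp. Tk1 in L1210-Fbxw11a and L1210-Fbxw11c turned to -0.010 and -0.026 with the authors' normalized values. No point reaches 1, the ratio of a 2-fold difference. Under median centring the points of L1210-Fbxw11d shift to the right and 5 of 40 stay below 0, against 22.3% of all genes.

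The MCM genes encode the 6 subunits of the replicative helicase, and their medians were -0.20, -0.21 and -0.058 in the 3 variant lines, the last turning to 0.16 under median centring. In L1210-Fbxw11a 5 of 6 were below 0, and in the other lines all 6. The count in L1210-Fbxw11d was 1 of 6 under median centring and 5 of 6 under normexp, where Mcm5 turned to 0.12. Mcm5, read by a probe at chr8:77651350-77651410 of mm9, gave 16990, 14633, 14173 and 16563, with ratios of -0.22, -0.26 and -0.037. Mcm2 gave 13076, 11121, 11659 and 12642 (ratios -0.23, -0.17 and -0.049). Both were thus lower in L1210-Fbxw11a and L1210-Fbxw11c and close to the control in L1210-Fbxw11d, as were Mcm4 (-0.12, -0.21 and -0.041) and Mcm7 (-0.19, -0.22 and -0.068). Mcm6 (chr1:130228178-130228237) took another order, with 84999, 85682, 72216 and 72333. Its signal in L1210-Fbxw11a was level with the control (ratio 0.012), and the other lines lay lower (-0.24 and -0.23). Mcm3 gave 38889, 33567, 35850 and 34828 and was lower in all 3 (-0.21, -0.12 and -0.16). Under median centring the last 2 ratios were -0.046 and 0.058. Its second probe gave -0.24, -0.18 and -0.10.

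The 5 genes of G1/S control and licensing divided by gene, with E2f1, Cdt1 and Cdc6 below 0 and the cyclin E genes above it, and medians of -0.064, -0.070 and -0.024. Under median centring the last 2 medians were 0.0012 and 0.19, and under normexp the median in L1210-Fbxw11d was -0.24 with 4 of 5 below 0. Cdt1 (chr8:125096893-125096952) gave 33268, 28592, 24861 and 23325. The control was the highest of the 4 arrays and L1210-Fbxw11d the lowest, with ratios of -0.22, -0.42 and -0.51. With the signals scaled as above, the range of Cdt1 over the 4 arrays (0.51) was the widest of all 40 genes. Under median centring its ratios were -0.21, -0.35 and -0.29, with L1210-Fbxw11c the lowest. Those of Gins4 then ran wider, from -0.21 to 0.40. Over 6 settings of background, scaling and flagged spots the ratio of Cdt1 in L1210-Fbxw11d ran from -0.56 to -0.29. E2f1 (chr2:154385798-154385857), an activating E2F factor, gave 4543, 4346, 3770 and 3907. Its ratios were -0.064, -0.27 and -0.22, and the last came to -0.00028 under median centring. Cdc6, which loads the helicase together with CDT1, was beyond 1 scanner error in L1210-Fbxw11a only by its brightest probe (ratios -0.29, -0.070 and -0.024), and its second probe gave -0.27, -0.35 and -0.084.

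The cyclin E genes were higher than the control, Ccne2 not under every setting. Ccne1 gave 7313, 8410, 9302 and 8948, with the control lowest and ratios of 0.20, 0.35 and 0.29. Its brightest probe is given by the deposited table at chr7:38882937-38882960, and a second probe of the gene at chr7:38885574-38885633, with signals of 184.5, 246.1, 299.1 and 253.9, had ratios of 0.42, 0.70 and 0.46. Ccne2, cyclin E2, was read at low signal, 32.1, 36.3, 38.9 and 38.5. Its ratios of 0.18, 0.28 and 0.26 were each below its ratio error of about 0.29, which was the widest of the 40 genes, and under normexp they became 0.072, 0.0011 and -0.25.

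**Figure D3:**
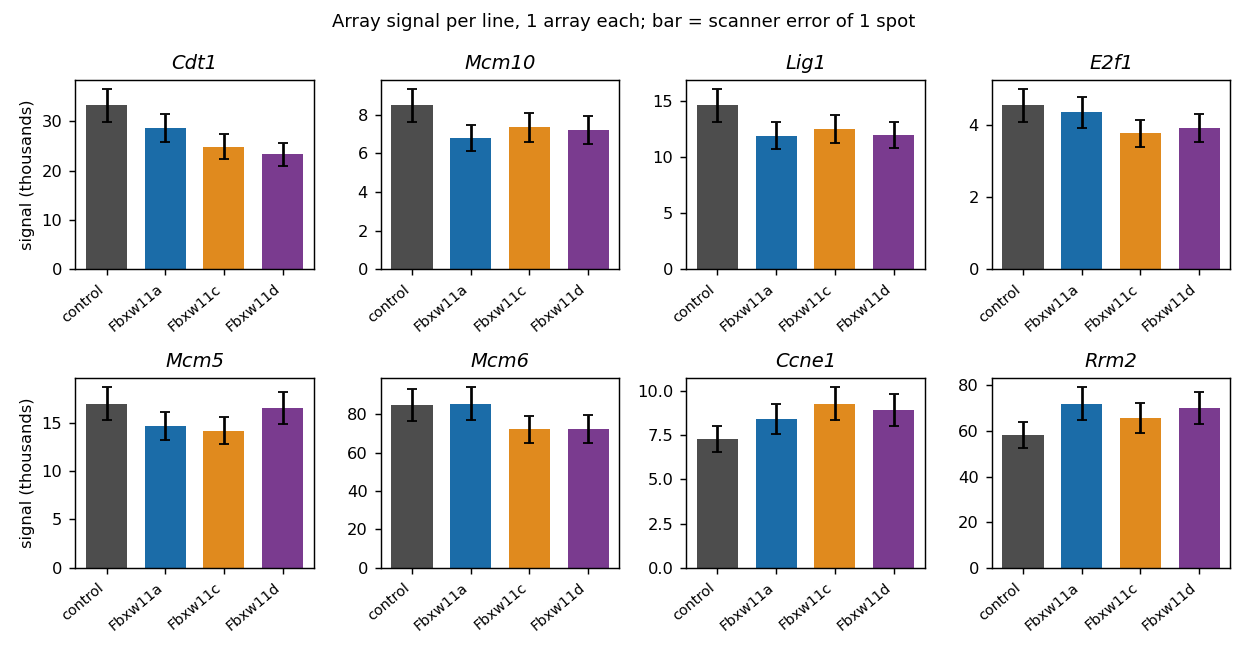
Scaled array signal of 8 genes in each of the 4 lines, 1 array each, on a vertical axis in units of 1000; each bar carries the scanner software's error for the spot or spots, not a spread between samples. L1210-control is the highest bar for Cdt1, Mcm10, Lig1, E2f1 and Mcm5 and the lowest for Ccne1 and Rrm2 under this scaling.

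The genes of helicase activation were lower in L1210-Fbxw11a (5 of 5 below 0, median -0.14) and L1210-Fbxw11c (5 of 5, median -0.043, or 0.029 under median centring), while in L1210-Fbxw11d 2 of 5 were and the median was 0.088 (0.30 under median centring, with 1 of 5 below 0, and 0.045 with the authors' normalized values). Mcm10 (chr2:4911785-4911844), which helps the loaded helicase to start moving, gave 8484, 6804, 7339 and 7224. The control was the highest of the 4 arrays, and the ratios were -0.32, -0.21 and -0.23, the last coming to -0.014 under median centring. Gins1, a subunit of the GINS complex, also had the control highest, at 5460, 4990, 4950 and 4729 (-0.13, -0.14 and -0.21). The other GINS subunits differed in L1210-Fbxw11d, where each was the highest of the 4 arrays. Gins4 gave 6852, 5914, 6707 and 7797, with ratios of -0.21, -0.031 and 0.19. Gins2 gave 2550, 2309, 2499 and 2864 (0.17 in L1210-Fbxw11d) and Gins3 gave 36188, 33899, 35123 and 38452 (0.088).

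The 8 genes of the DNA polymerases and primase had medians of -0.15, -0.13 and 0.020, and 7, 6 and 4 of them were below 0. In L1210-Fbxw11d the median was 0.24 under median centring, with 0 of 8 below 0, and -0.015 with the authors' normalized values. Prim1, the catalytic primase subunit, gave 13203, 12290, 12070 and 11862 (ratios -0.10, -0.13 and -0.15). Pola2, the accessory subunit of polymerase alpha, gave 487.6, 434.3, 429.6 and 468.9 (-0.17, -0.18 and -0.056). The control was highest for both, and also for Pole and Pold1, the catalytic subunits of the polymerases of the leading and the lagging strand (ratios from -0.18 to -0.076). Pole2, Pold2 and Pola1 were higher than the control in L1210-Fbxw11d, with ratios of 0.12, 0.17 and 0.12. By their brightest probes all of these lay within 1 scanner error of 0, but a dimmer probe of Pole, at 344.9 to 435.8, gave -0.34, -0.26 and -0.29, each beyond it. Prim2, the large primase subunit, depended on the probe: the brighter gave 0.045, -0.088 and 0.097, and the other, at signals of 106.8 to 257.4, gave -0.33, 0.58 and -0.69.

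The sliding clamp and its loader had the narrowest median range of the 8 roles (0.18). Pcna, the clamp itself, gave 47402, 44007, 46072 and 44713, and its range over the 4 arrays, 0.11, was the narrowest of the 40 genes. Rfc3, a subunit of the clamp loader, gave 2020, 1827, 2038 and 1946. The loader genes Rfc1 to Rfc5 had ratios between -0.18 and 0.11. Rfc4 was level with the control in L1210-Fbxw11a (-0.0017) and lower in L1210-Fbxw11d (-0.18), where its second probe gave 0.14. Over the 6 genes the medians were -0.10, -0.053 and -0.069, and those of L1210-Fbxw11c and L1210-Fbxw11d turned to 0.018 and 0.15 under median centring.

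The 4 genes of single-strand binding and Okazaki fragment maturation had medians of -0.041, -0.063 and -0.15, the last 2 turning to 0.0086 and 0.063 under median centring, and the second to 0.00089 under normexp. Among them Lig1 (chr7:13896609-13896667), the ligase that joins the fragments, gave 14617, 11902, 12498 and 11967. The 3 variant lines lay close together below the control (-0.30, -0.23 and -0.29, the last 2 being -0.15 and -0.071 under median centring), the farthest of the 40 genes when each is judged by its least changed line under the 75th percentile scaling. Rpa2 gave 2576, 2319, 2197 and 2310 and was lower in all 3 (-0.15, -0.23 and -0.16). Its partner Rpa1, the large subunit of the same single-strand binding complex, gave 16156, 18674, 18564 and 14542. It was higher in L1210-Fbxw11a and L1210-Fbxw11c (0.21 and 0.20) and lower in L1210-Fbxw11d (-0.15), although its second probe gave -0.034, 0.054 and 0.12. Fen1, the flap endonuclease, had ratios of 0.071, 0.10 and -0.065.

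Of the 4 nucleotide supply genes, 2 (Rrm2 and Tk1) read lowest in L1210-control and none read highest there, although Dut did under quantile normalization and with the authors' normalized values. Rrm2 (chr12:25398824-25398883), the small subunit of ribonucleotide reductase, gave 58316, 72028, 65879 and 69946, with the control the lowest and ratios of 0.30, 0.18 and 0.26. The large subunit Rrm1 was higher in L1210-Fbxw11d (0.27) and in L1210-Fbxw11a (0.14) but not in L1210-Fbxw11c (-0.037). Tk1, thymidine kinase, gave 21289, 21369, 21668 and 26124, level with the control in L1210-Fbxw11a and L1210-Fbxw11c and 0.30 higher in L1210-Fbxw11d. Its second probe gave 0.18, 0.15 and 0.072, and its dimmest probe gave -0.016, -0.061 and 0.032. Dut, the enzyme that removes dUTP, gave 13072, 12609, 12542 and 13664, all within 0.064 of the control. Its ratio in L1210-Fbxw11d was 0.28 under median centring, and that in L1210-Fbxw11c was -0.12 under quantile normalization. The second probe of Dut gave -0.18, -0.038 and 0.038. The role had medians of 0.071, -0.0058 and 0.26. The second was 0.066 under median centring and -0.065 with the authors' normalized values, and the third was 0.48 under median centring. Outside the 40, Tyms, thymidylate synthase, had ratios of -0.35, -0.18 and -0.28.

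Chaf1a and Chaf1b, subunits of the chromatin assembly factor that places histones on new DNA, were lower in the variant lines, except in L1210-Fbxw11d under median centring and, for Chaf1a, under normexp. Chaf1b gave 16271, 14680, 15121 and 14221, and Chaf1a gave 4941, 4321, 4546 and 4443. Their ratios lay between -0.19 and -0.11, within 1 scanner error of 0. A second probe of Chaf1b gave -0.086, -0.17 and -0.32, the last beyond it. The median of both genes in L1210-Fbxw11d turned from -0.17 to 0.044 under median centring.

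The median range of the replication genes over the 4 arrays was 0.23, near the 0.26 of genes of 1000 or more, and it was 0.35 for the 16249 genes above background throughout. Beyond 0.25 in either direction lay 4 genes of L1210-Fbxw11a (Cdc6, Mcm10, Lig1 and Rrm2), 5 of L1210-Fbxw11c (Mcm5, E2f1, Ccne1, Ccne2 and Cdt1) and 7 of L1210-Fbxw11d (Ccne1, Ccne2, Cdt1, Lig1, Rrm1, Rrm2 and Tk1). Of all genes compared 31.9%, 30.9% and 42.3% lay that far from 0, and of the genes of 1000 or more 14%, 14.9% and 26.2%.

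**Figure D4:**
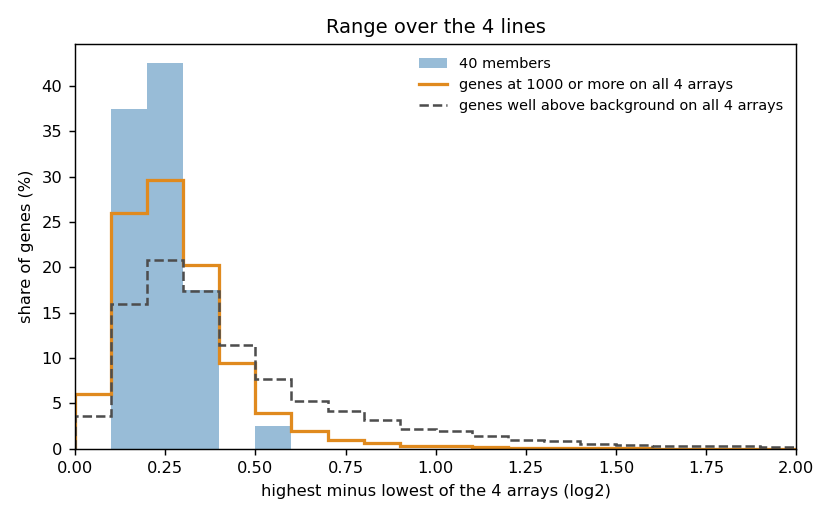
Distribution of the range over the 4 arrays (highest minus lowest scaled log2 signal, in bins of 0.1) for the 40 replication genes (filled), for the 7369 genes at 1000 or more on every array (solid line) and for the 16249 genes well above background on every array (dashed line); the axis ends at 2. The replication genes lie between 0.11 and 0.51.

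Set against each other, the variant lines did not differ 2-fold in any of the 40 genes. Of all genes, 4.22% did between L1210-Fbxw11c and L1210-Fbxw11a, 6.01% between L1210-Fbxw11d and L1210-Fbxw11a, and 4.23% between L1210-Fbxw11d and L1210-Fbxw11c. Among the genes of 1000 or more these shares were 0.204%, 0.326% and 0.149%, so that a count of 0 in 40 lies near the background here too. The medians over the replication genes were 0.025, 0.086 and 0.049 under the 75th percentile scaling. Over all genes they were 0.0096, 0.0023 and 0.0017, and over the genes of 1000 or more 0.026, 0.049 and 0.027. Median centring shifts all genes of a comparison, and so each of these medians, by a constant. Gins4 was 0.40 higher in L1210-Fbxw11d than in L1210-Fbxw11a, and Rpa1 was lower (-0.36), the ends of that comparison. In L1210-Fbxw11c against L1210-Fbxw11a the ends were Mcm6 (-0.25) and Pola1 (0.27), and in L1210-Fbxw11d against L1210-Fbxw11c they were Rpa1 (-0.35) and Rrm1 (0.30).

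A list of 36 other replication genes, written from general knowledge, was measured above background on all 4 arrays, and 0 of them differed 2-fold from the control. Their medians were -0.041, 0.045 and 0.077. Below 0 lay 24, 14 and 14 of 36, against 47.1%, 45.6% and 42% of all genes. L1210-control was the highest array for 9 of them (25%) and the lowest for 10 (27.8%). Over all genes above background these shares were 20.9% and 27.4%. The high share with the control highest, 21 of the 40 genes, was thus not seen here. Orc1, the largest subunit of the origin recognition complex, was the farthest below in L1210-Fbxw11a and L1210-Fbxw11c, at 913.6, 591.7, 610.1 and 717.0 (-0.63, -0.58 and -0.35). Timeless, a fork protection factor, had ratios of -0.36, -0.41 and -0.35. E2f3, another activating E2F factor, was 0.066, 0.35 and 0.56 from the control, above it in all 3 lines where E2f1 was below. Orc2 (0.55) and Cdc7 (-0.55), the kinase that fires origins, also lay beyond 0.5 in L1210-Fbxw11d.

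For 10 of the 40 genes more than 1 probe was present, and 11 of their 13 further probes were well above background on every array. Of the 33 ratios these gave, 24 had the sign of the brightest probe. The median difference between probes of a gene was 0.13, a size like that of the median shift of the replication genes, and the largest, 0.78, was that of Prim2 in L1210-Fbxw11d.

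**Figure D5:**
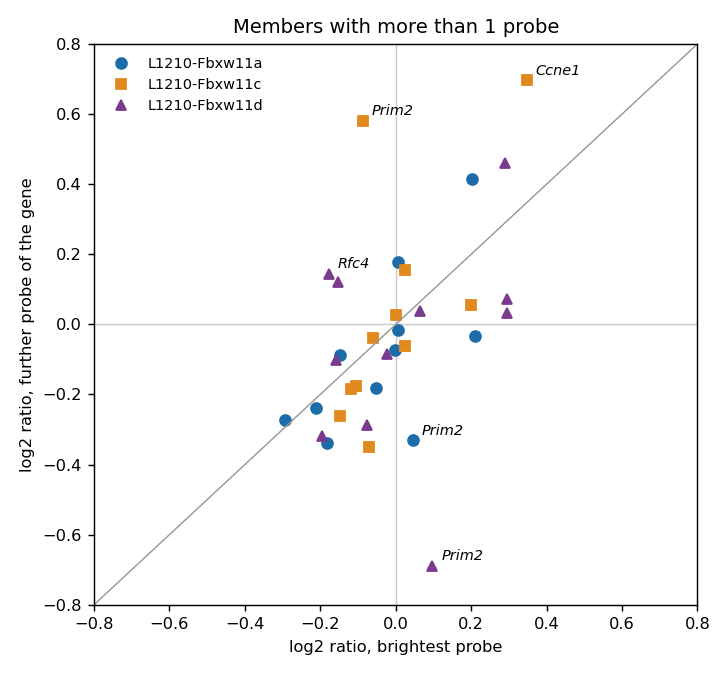
Log2 ratio to L1210-control from a further probe of a gene (vertical) against that from its brightest probe (horizontal), for 11 further probes in each of 3 variant lines; the diagonal marks equal ratios. Both probes of Ccne1 lie above 0 in all 3 lines, and the further probe of Prim2 lies far from the diagonal in all 3.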

How the data were processed

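Total RNA of 4 L1210 lines was labelled with Cy3 and hybridised to Agilent mouse arrays, 1 array per line. For each array the authors deposited the scanner software's background-subtracted signal intensity of 59305 gene spots (Agilent Feature Extraction 9.1, per the submitters' processing notes). The authors also deposited a table of log2 signals that they normalized across the 4 arrays, with gene symbols and mm9 coordinates, by a method not given in the sources used here. Here, outlier-flagged spots (102 to 167 per array) were left out, spots of a probe were averaged, and log2 signals were taken relative to the 75th percentile of each array. No gene spot was saturated. Genes were compared where at least 0.5 of a probe's spots were well above background on 1 of the 2 arrays, and called at a fold of 2, as in the study. All 40 replication genes passed this on all 4 arrays. Samples were grouped by their titles. No test across samples was possible, and the number of arrays limits the precision. The genes and lists were chosen with earlier results of these data known. All 40 genes are named; signals on all arrays are given for the 10 farthest from 0 in their least changed line with 1 direction, for the 5 of widest range, for the brightest and dimmest of each role, and for Mcm5, E2f1 and Tk1, which were chosen after their values were seen. Of the other replication genes, those named were also chosen after their values were seen. The settings varied were the background correction (normexp with an offset of 50, limma 3.58.1), the scaling (quantile normalization or median centring), the authors' deposited log2 values, the mean of a gene's probes, its second brightest probe, other filters on dim probes, flagged spots kept, and folds of 1.5 and 3. Simulated arrays were used to test how genes are called. R 4.3.3, Python 3.11.15, numpy 2.4.6, pandas 2.3.3 and matplotlib 3.10.9 were used.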

Additional observations from a re-analysis of the deposited data

How the results depend on the processing

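With 1 array per line, every difference rests on 2 arrays, and neither the scanner error nor the spread between spots covers culture, sorting or RNA extraction. No paired analysis was possible because each line has 1 array. The count of 0 replication genes at 2-fold was the same under every alternative in the 3 comparisons with L1210-control. Median centring moved the median of the replication genes in L1210-Fbxw11d from -0.055 to 0.16. It also moved the number of genes with the control as the highest array from 21 (20.9% of all genes) to 4 (10.71%), and as the lowest from 4 (27.4%) to 8 (38.6%). Under normexp, quantile normalization and the authors' deposited values the control was the highest for 18, 24 and 24 genes. Of all genes, 23.2%, 21.3% and 21.4% had this order. The control was the lowest for 3, 3 and 3 genes, against 26.0%, 26.0% and 26.0%. With the second brightest probe, 1 gene, Prim2, differed 2-fold between L1210-Fbxw11d and L1210-Fbxw11c, where the brightest probes gave 0. At a fold of 1.5, 1 other replication gene, Orc1 in L1210-Fbxw11a, was called, against 0 at a fold of 2. Of the 120 single ratios, 30 changed sign under median centring, 7 under normexp, 5 under quantile normalization and 5 with the deposited values. The counts of orders, the differences between variant lines and the reference to each line's own median were chosen after seeing the data. The cause of these changes was not tested, apart from the shift of all genes that median centring itself gives.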
